A study of Mus musculus with 28 samples.

Results

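The nuclear-encoded genes of the mitochondrial respiratory chain were examined in mouse hippocampus. They were taken by symbol from the table of raw counts: the Nduf genes of complex I, the Sdh genes of complex II, the Uqcr genes of complex III, the Cox4 to Cox8 genes of complex IV and the Atp5 genes of complex V, without pseudogenes and with a mean count of at least 10 over 28 libraries. Of 24062 genes in the table, 84 symbols matched and 82 were kept: 36 of complex I, 4 of complex II, 8 of complex III, 17 of complex IV and 17 of complex V. The 2 left out, Cox8c and Ndufs5, had a count of 0 in every library. The Ndufs5 transcript shares 19.8% of its 100-base windows with another annotated gene. Whether its 0 comes from the counting or from the tissue was not tested. The members nearest the minimum were Cox7b2 with a mean count of 23.8, Cox4i2 with 31.5 and Cox6a2 with 39. All 82 were among the 16369 genes that passed the low count filter and were tested.

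Complexes I and II pass electrons from NADH and succinate to ubiquinone, complex III passes them on to cytochrome c, and complex IV hands them to oxygen. Complexes I, III and IV pump protons across the inner membrane, and complex V, the ATP synthase, uses that gradient to make ATP. Neurons depend on this supply for ion pumping and synaptic transmission. A few core subunits are encoded by mitochondrial DNA and were not analysed here. Nuclear-encoded subunits with other symbols, such as Cyc1 of complex III, are not among the members either. By their names, some members stand in a complex to which they do not belong as ordinary subunits. Ndufa4 and Ndufa4l2 are counted with complex I but belong to complex IV by their known place. Atp5s and Atp5sl are counted with complex V but are not subunits of the enzyme. Cox7a2l is counted with complex IV but joins complexes III and IV in supercomplexes.

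The study sequenced hippocampal messenger RNA of female mice of 2 genotypes, to ask how drugs that remove senescent cells act in a model of Alzheimer's disease. The 3xTg line carries human App and Mapt transgenes driven by the Thy1 promoter; the WT mice are labelled BL6129. There were 7 groups of 4 libraries: WT with vehicle, WT with NAVI (navitoclax, ABT263, which blocks anti-apoptotic BCL-2 proteins), WT with DQ (dasatinib, a kinase inhibitor, and quercetin, a flavonoid), and 4 groups of 3xTg, given NAVI, DQ or either of the vehicles that the labels call VehN and VehD. The labels give no age, dose or time. NAVI was compared with VehN and DQ with VehD in 3xTg, both drugs shared the single vehicle group in WT, and the genotypes were compared within vehicle (the mean of VehN and VehD against WT), within NAVI and within DQ.

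Libraries held 32080861 to 54019519 counts, of which the members took 0.964% to 1.1%. Reads on App ran from 1470 to 1800 CPM (counts scaled to a common library size) in the 12 WT libraries and from 2410 to 3805 CPM in the 16 3xTg libraries, so the genotype labels were borne out in every library. All 6 neuron markers and all 8 markers of hippocampal pyramidal and granule cells were detected. In bulk tissue, fewer cells of a type and less RNA per cell cannot be told apart. The summed level of 5 astrocyte markers was 4880 to 5974 CPM in WT and 5615 to 7005 CPM in 3xTg, that of 5 oligodendrocyte markers 2551 to 4340 and 3351 to 5806 CPM, and that of 6 neuron markers 6805 to 8629 and 6665 to 7731 CPM. Markers of tissue next to the hippocampus varied within and between groups. The 6 thalamus and habenula markers summed to 42.5 to 158 CPM in WT and 39.5 to 417 CPM in 3xTg. The 6 choroid plexus markers summed to 80.5 to 5029 and 66.8 to 5758 CPM. In 3xTg the choroid plexus median was 3232 CPM with VehN (lowest 2280), 1431 with VehD, 1841 with NAVI and 462 with DQ. In WT it was 1718 CPM with vehicle, 241 with NAVI and 2179 with DQ. With vehicle, the median log2 difference between genotypes was 0.58 for choroid plexus and 0.97 for thalamus markers. For NAVI against VehN in 3xTg the medians were -0.97 and -0.75, and no such marker passed the test below in either comparison. In each library the log2 level of all genes was also set against their GC content (the share of G and C in the transcript), and the slope ran from -0.36 to 0.30 log2 units per 10 points of GC. The part of these differences in the results below was not tested except where an alternative is named.

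Levels of different genes were compared as CPM per kilobase of transcript. Across the 81 members with a transcript in the annotation the median was 80.5 CPM per kb and the range ran from 0.984 for Ndufa4l2 to 703 for Atp5b, the catalytic beta subunit of ATP synthase. Other high members were Ndufa4 at 449, Atp5a1, the alpha subunit beside Atp5b, at 387, Cox4i1, the first nuclear subunit of complex IV, at 384, and Uqcrh, the hinge protein of complex III, at 369 CPM per kb. The medians rose from 71.3 in complex I through 78.1 in complex II, 101 in complex III and 121 in complex IV to 171 CPM per kb in complex V. For subunits with tissue-specific forms, 1 form carried nearly all of the signal: Cox4i1 stood at 384 CPM per kb against 0.997 for Cox4i2, a form used in lung and at low oxygen. Likewise Cox6a1 stood at 180 against 1.34 for the heart and muscle form Cox6a2, Cox7a2 at 278 against 2.98 for the muscle form Cox7a1, and Cox8a at 300 against 3.94 for the muscle form Cox8b.

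Without drug, the 3xTg hippocampus held less messenger RNA of 12 of the 82 members than WT, and of no member more. The 12 were Ndufa3 and Ndufs6 of complex I, Uqcrq of complex III, Cox4i1, Cox6b1, Cox7a2 and Cox7a2l of complex IV, and Atp5d, Atp5j2, Atp5k, Atp5l and Atp5sl of complex V; no complex II gene passed. The falls were small, between -0.16 and -0.78 on the log2 scale (edgeR's quasi-likelihood test, adjusted p under 0.05 over all genes). Among all genes tested, 7.4% were called lower and 5.68% higher, 13.1% in all. An unadjusted p under 0.05 was found for 36 members and for 32.3% of all genes. The median log2 difference was -0.10 over the members and 0.01 over all genes. Below 0 were 57 of 82 members and 7991 of all 16369 genes. Leaving out 1 library at a time gave 3 members called lower without WT vehicle replicate 1, 4 without WT vehicle replicate 4, 7 without VehN replicate 2, VehN replicate 3 or VehD replicate 3, 25 called (24 of them lower) without WT vehicle replicate 2 and 28 without VehN replicate 1. With VehD alone as the 3xTg vehicle group 2 were called, while 43 were called, 37 lower and 6 higher, when 8 libraries rich in thalamus markers were left out, a set chosen after the data were seen.

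**Figure D1:**
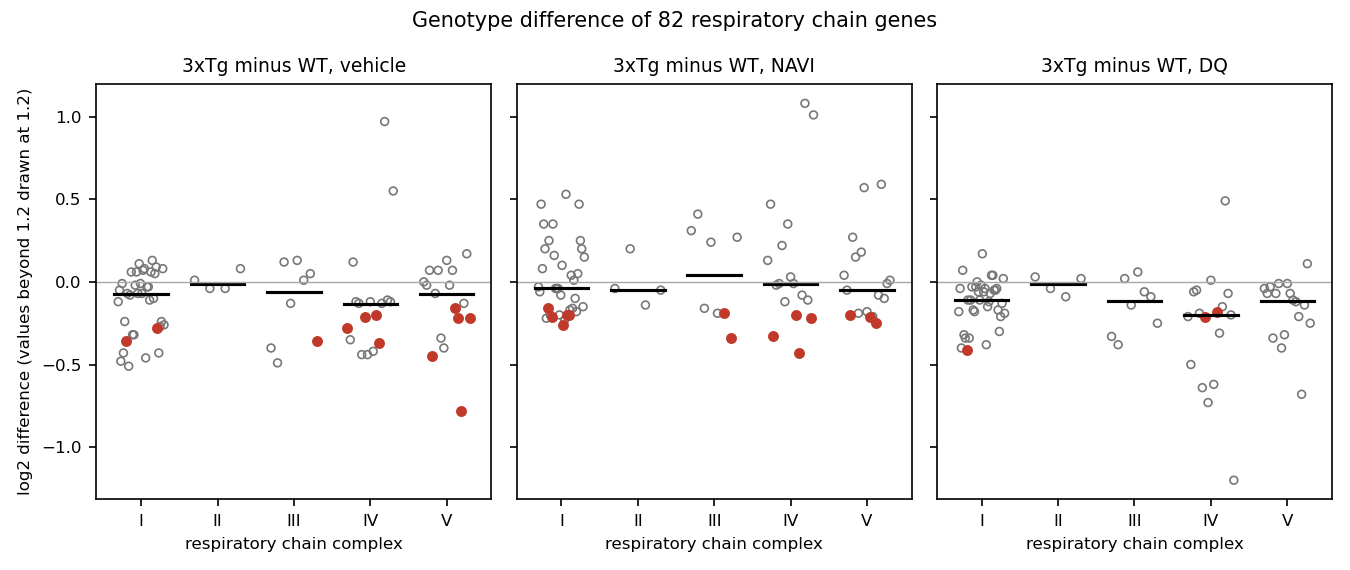
Log2 difference of each of the 82 members, 3xTg minus WT, by complex, with vehicle, NAVI and DQ. Filled points passed the edgeR test, open points did not, and bars are medians; 12, 14 and 3 members passed, all below 0, and none in complex II.

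Ndufa3, an accessory subunit of the membrane arm of complex I (ENSMUSG00000035674.13, chr7:3617373-3620327, plus strand), showed the smallest p of the family. It stood at 79.5, 68.5, 78.1 and 89 CPM in the 4 WT vehicle libraries, at 67, 58, 55.5 and 63.9 CPM with VehN and at 59.2, 63.6, 55.9 and 68.8 CPM with VehD. Only 1 of the 8 vehicle libraries of 3xTg, at 68.8 CPM, reached above the lowest WT library. The means were 78.8 ± 8.42 (SD, n = 4) in WT and 61.5 ± 5.06 (n = 8) in 3xTg, a log2 difference of -0.36 (SE 0.0629; adjusted p = 0.000804, edgeR). The gene overlaps an exon of Tfpt on the other strand, and whether the counting used strand is not stated in any source at hand.

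Cox6b1 and Cox7a2 are small nuclear subunits of complex IV: the first lies on the side of the enzyme that faces the intermembrane space, at the contact of its dimer, and the second is the form of subunit 7a found outside muscle. Cox7a2 (ENSMUSG00000032330.7, chr9:79755361-79759878) stood at 197, 197, 197 and 192 CPM in WT with vehicle and at 162 to 178 CPM (median 172) in the 8 vehicle libraries of 3xTg. The groups did not overlap, and the log2 difference was -0.20 (SE 0.0412; adjusted p = 0.00338, edgeR). Cox6b1 (ENSMUSG00000036751.7, chr7:30616861-30626151) stood at 203, 188, 202 and 198 CPM in WT and at 154 to 181 CPM (median 176) in 3xTg, again without overlap, a log2 difference of -0.21 (SE 0.0462; adjusted p = 0.00545, edgeR). Under all 24 alternatives, 12 of which left out 1 library, Ndufa3 and Cox7a2 were called lower. Cox6b1 was called without any 1 library but not with VehD alone (edgeR adjusted p = 0.0525) nor without the 6 libraries with the steepest GC slopes (edgeR adjusted p = 0.0543). The other 9 lost the call under at least 1 alternative.

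The sequence upstream of these 3 genes is shown because they are the 3 members called lower both with vehicle and with DQ. Each run covers 205 bases ending 46 bases before the start of the gene in RefSeq (build GRCm38.p6), on the gene's own strand, with CCAAT in either orientation in capitals.
Ndufa3, chr7:3617123-3617327, plus strand: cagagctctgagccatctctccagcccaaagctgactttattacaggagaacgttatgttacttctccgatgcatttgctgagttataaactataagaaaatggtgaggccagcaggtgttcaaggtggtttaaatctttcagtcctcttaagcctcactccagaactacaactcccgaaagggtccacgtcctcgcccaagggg
Cox6b1, chr7:30626160-30626364, minus strand: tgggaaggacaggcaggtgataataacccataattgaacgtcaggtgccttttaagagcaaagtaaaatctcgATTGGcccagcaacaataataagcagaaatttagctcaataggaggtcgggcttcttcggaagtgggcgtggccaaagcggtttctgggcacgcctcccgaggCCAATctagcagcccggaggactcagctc
Cox7a2, chr9:79759899-79760103, minus strand: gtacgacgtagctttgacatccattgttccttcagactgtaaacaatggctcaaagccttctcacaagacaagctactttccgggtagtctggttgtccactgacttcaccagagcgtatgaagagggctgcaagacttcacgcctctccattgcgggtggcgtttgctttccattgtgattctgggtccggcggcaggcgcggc
The Cox6b1 run holds CCAAT 2 times, once in each orientation, and the other runs hold none. Such windows were found for 68 of the 82 members. CCAAT was present in 28 of them (41.2%) and in 29.7% of all 27025 windows of the table, on either strand. The palindromic motif of nuclear respiratory factor 1 (NRF1) was present in 7 member windows (10.3%) and in 2.41% of all windows, the core CCGGAAG bound by ETS factors such as GABPA in 4 (5.88%) and 4.27%, and AAGATGGC, bound by YY1, in 0 and 1.38%. Of 10 windows of members that were lower in 3xTg with vehicle, 5 held CCAAT, 1 held CCGGAAG and 0 held the NRF1 motif. These are matches of letters, not measured binding. The windows hold neither the bases next to the start nor those after it, so motifs there were not counted.

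**Figure D2:**
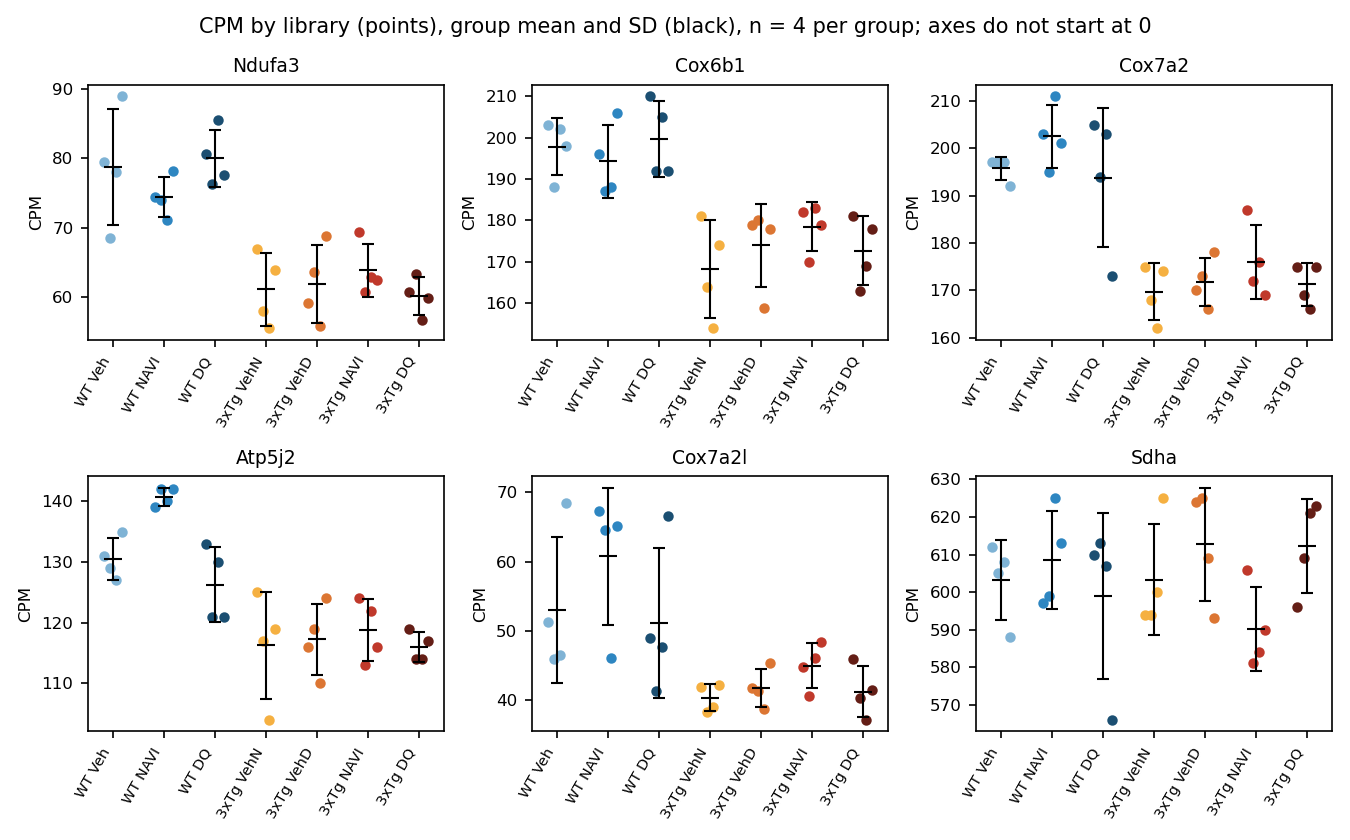
CPM of 6 members in each of the 28 libraries, by group, with group mean and SD; the axes do not start at 0. Cox6b1 lay at 154 to 183 CPM in 3xTg and 187 to 210 CPM in WT, whereas Sdha lay between 566 and 625 CPM in both genotypes.

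Ndufs6 was the other complex I member called. Ndufs6, a small subunit of the NADH-oxidising module, stood at 48.1, 40.2, 44.9 and 48.5 CPM in WT with vehicle and at 30.6 to 44.1 CPM in 3xTg, which overlapped, a log2 difference of -0.28 (SE 0.0771; adjusted p = 0.0193, edgeR). The core subunits did not pass: the log2 difference was 0.13 (SE 0.0548) for Ndufs1, the large iron-sulfur subunit, -0.24 (SE 0.0936) for Ndufv1, which binds NADH, and -0.43 (SE 0.178) for Ndufs7, which carries the last iron-sulfur cluster. Among accessory subunits, Ndufa1 gave -0.12 (SE 0.0647) and Ndufb7 -0.46 (SE 0.21). In the whole group, 26 of 36 differences were below 0, and 13 had an unadjusted p under 0.05.

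Complex II, which is also an enzyme of the citric acid cycle and has no subunit encoded in mitochondria, had no call. Sdha, the flavoprotein that oxidises succinate, stood at 612, 605, 608 and 588 CPM in WT with vehicle and at 603 and 613 CPM on average with VehN and VehD. Its log2 difference was 0.01 (SE 0.0325). Sdhb, the iron-sulfur subunit, gave -0.04 (SE 0.0613) and the membrane anchor Sdhd gave 0.08 (SE 0.0366). None of the 4 passed, and their median was -0.01.

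The 1 call in complex III was a small subunit. Uqcrq, the ubiquinone-binding protein, stood at 31.9, 25.1, 28 and 37.1 CPM in WT and at 19.8 to 27.8 CPM in 3xTg with vehicle, a log2 difference of -0.36 (SE 0.114; adjusted p = 0.0371, edgeR). Uqcr11, another small subunit, gave -0.49 (SE 0.2) without passing. The core protein Uqcrc1 gave -0.13 (SE 0.0786), and the Rieske iron-sulfur protein Uqcrfs1 gave 0.01 (SE 0.0447). Uqcrq and Uqcr11 did not separate the genotypes library by library.

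Complex IV had 14 of 17 differences below 0 and 4 calls. Besides Cox7a2 and Cox6b1, Cox4i1 stood at 350, 275, 303 and 350 CPM in WT and at 207 to 313 CPM in 3xTg with vehicle, a log2 difference of -0.28 (SE 0.0941; adjusted p = 0.0471, edgeR). Cox7a2l, which joins complexes III and IV in supercomplexes, stood at 51.2, 45.9, 46.5 and 68.5 CPM in WT and at 38.2 to 45.3 CPM in 3xTg, a log2 difference of -0.37 (SE 0.112; adjusted p = 0.0314, edgeR). WT vehicle replicate 4, at 68.5 CPM, stood above the other 3 WT libraries. Without it the adjusted p from edgeR was 0.252, and without WT vehicle replicate 1 it was 0.071. Differences that did not pass were -0.12 (SE 0.0484) for Cox5b, -0.13 (SE 0.058) for Cox6a1, -0.12 (SE 0.063) for Cox6c, -0.12 (SE 0.0534) for Cox8a and -0.07 (SE 0.0384) for Ndufa4. The scarce forms, all under 4 CPM per kb, had large errors and both signs, and none passed. The values were 0.97 (SE 0.364) for Cox7b2, 0.55 (SE 0.803) for Cox8b, -0.44 (SE 0.319) for Cox6b2, -0.35 (SE 0.244) for Cox4i2, -0.44 (SE 0.308) for Cox6a2, -0.42 (SE 0.254) for Cox7a1 and -0.51 (SE 0.252) for Ndufa4l2.

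In complex V the catalytic subunits were not called, while parts of the stalk and membrane sector fell. Atp5b stood at 1373, 1332, 1375 and 1354 CPM in WT and at 1348 and 1339 CPM on average with VehN and VehD, a log2 difference of -0.02 (SE 0.0384), and Atp5a1 gave 0.00 (SE 0.0361). Atp5j2, the membrane subunit f, stood at 131, 129, 127 and 135 CPM in WT and at 104 to 125 CPM in 3xTg, without overlap, a log2 difference of -0.16 (SE 0.0434; adjusted p = 0.0168, edgeR). Atp5k, the membrane subunit e that helps the enzyme form dimers, gave -0.22 (SE 0.0619, edgeR adjusted p = 0.0231). Atp5d, the delta subunit of the central stalk, gave -0.45 (SE 0.148, edgeR adjusted p = 0.0433), whereas the epsilon subunit Atp5e beside it gave -0.07 (SE 0.0782) without passing. Of the genes for the proton-carrying c ring, Atp5g1 gave -0.34 (SE 0.131) and Atp5g3 0.13 (SE 0.0548), neither past the test. Atp5l, the membrane subunit g, had the largest fall, -0.78 (SE 0.194, edgeR adjusted p = 0.0112). Its transcript shares 69% of its 100-base windows with other annotated genes, so its counts are uncertain. Other members share windows too, among them Atp5g2 at 86.4%, Ndufb4 at 33.4% and Atp5h at 29.5%. Exons of Ndufs6, Cox4i1 and Atp5d overlap those of Mrpl36, Emc8 and Cbarp on the other strand.

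Ndufa3 and Cox6b1 lie on the same end of chromosome 7, a feature noticed after their values were seen. Among 389 tested genes other than the members that start in the first 40 Mb of that chromosome, 74 (19%) were lower in 3xTg with vehicle, against 8.22% of 791 genes on the rest of chromosome 7 and 7.01% of genes on other chromosomes. With DQ the shares were 6.43%, 0.885% and 1.24%, and with NAVI 3.6%, 1.77% and 2.62%. The other 2 members that the annotation placed in that stretch, Cox6b2 and Cox7a1, were not called in any of the 3 comparisons. Atp5sl, called lower with vehicle, had no position in the annotation and was assigned to no stretch. In the order of the deposited genes it stands between Cox6b2 and Cox7a1.

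With NAVI in both genotypes, 14 members were lower in 3xTg than in WT and 0 were higher. Over all genes, 2.69% were called lower and 3.29% higher, 5.98% in all. The 14 were Ndufa4, Ndufa6, Ndufb5, Ndufb8 and Ndufb9, Uqcrfs1 and Uqcrh, Cox5a, Cox7a2, Cox7a2l and Cox8a, and Atp5c1, Atp5h and Atp5j2. Atp5j2 stood at 139, 142, 140 and 142 CPM in WT with NAVI and at 124, 113, 122 and 116 CPM in 3xTg with NAVI, a log2 difference of -0.25 (SE 0.0504; adjusted p = 0.00488, edgeR). Every WT library lay above every 3xTg library, and the call was kept under all 18 alternatives. Uqcrh stood at 202, 220, 253 and 226 CPM in WT and at 183, 200, 174 and 157 CPM in 3xTg, a log2 difference of -0.34 (SE 0.0751; adjusted p = 0.00918, edgeR). Cox7a2 gave -0.20 (SE 0.0479, edgeR adjusted p = 0.013). Ndufb8, an accessory subunit of the membrane arm, gave -0.20 (SE 0.0462, edgeR adjusted p = 0.0108), and Ndufb5, of the same arm, -0.26 (SE 0.07, edgeR adjusted p = 0.029). Cox7a2l stood at 67.3, 64.6, 46 and 65.2 CPM in WT with NAVI and at 44.8, 40.5, 46.1 and 48.3 CPM in 3xTg with NAVI. WT NAVI replicate 3, at 46 CPM, lay within the 3xTg range. Cox7a2l had the largest fall, -0.43 (SE 0.131, edgeR adjusted p = 0.0471). That call was lost in 7 of 8 fits without 1 library, all but that without WT NAVI replicate 3, with an adjusted p from edgeR of up to 0.121, and in 5 of 10 other alternatives, RLE scaling and removal of the GC trend among them. The median of the members was -0.04, and 47 of 82 were below 0, against 8141 of all 16369 genes. Leaving out 1 library gave 7 calls without 3xTg NAVI replicate 1 or replicate 3, 4 without its replicate 4, 3 without WT NAVI replicate 3 and 6 without its replicate 4. Without the 6 libraries with the steepest GC slopes, 2 of which are 3xTg NAVI libraries, 2 were called.

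With DQ in both genotypes, Ndufa3, Cox6b1 and Cox7a2 were lower in 3xTg and no member was higher. Of all genes, 1.37% were called lower and 1.68% higher, 3.05% in all. Ndufa3 stood at 80.6, 76.3, 85.5 and 77.6 CPM in WT with DQ and at 60.8, 63.4, 56.7 and 59.9 CPM in 3xTg with DQ, a log2 difference of -0.41 (SE 0.0737; adjusted p = 0.002, edgeR). Cox6b1 stood at 210, 192, 205 and 192 CPM in WT and at 181, 163, 169 and 178 CPM in 3xTg, a log2 difference of -0.21 (SE 0.0538; adjusted p = 0.0281, edgeR). For these 2 genes the groups did not overlap. Cox7a2 stood at 205, 194, 203 and 173 CPM in WT and at 175, 169, 166 and 175 CPM in 3xTg, overlapping through 1 WT library, a log2 difference of -0.18 (SE 0.0479; adjusted p = 0.0376, edgeR). The 6 choroid plexus and 6 thalamus markers were all below 0 in this comparison, with medians of -0.91 and -0.83. With their scores as covariates the calls of Cox6b1 and Cox7a2 were lost (adjusted p from edgeR 0.0731 and 0.0901), and that of Ndufa3 was kept. Of the members, 69 of 82 were below 0, with a median of -0.11, against 8269 of all 16369 genes below 0. Only Ndufa3 was called without any 1 library: 1 member passed without 3xTg DQ replicate 2, 3 or 4 or WT DQ replicate 1 or 3, and 5 passed without WT DQ replicate 4.

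The 3 genotype comparisons share no library. Cox7a2 was the 1 member called lower in all 3. Of the members lower with vehicle, 25% were also lower with NAVI (Atp5j2, Cox7a2 and Cox7a2l), and these were 21.4% of those lower with NAVI. Over all genes the corresponding shares were 10.6% and 29.3%. Cox7a2l fell into 2 ranges among the WT libraries, as described below. The high range held 1 WT library with vehicle and 3 with NAVI. The 3 members lower with DQ were all lower with vehicle too, as were 56.9% of all genes lower with DQ, and they were 25% of the members lower with vehicle, against 10.6% over all genes. The log2 difference was below 0 in all 3 for 26 members (31.7%) and for 14.6% of all genes, and above 0 in all 3 for 2 members (2.44%) and for 14.4% of all genes. In Cox6b1 each of the 16 libraries of 3xTg lay below each of the 12 WT libraries, at 154 to 183 against 187 to 210 CPM; this held for 0.232% of all genes. The opposite order held for 0 members and for 0.36% of all genes. Ndufa3 came close, with 55.5 to 69.4 CPM in 3xTg and 68.5 to 89 CPM in WT.

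No member passed the test for either drug within a genotype. In 3xTg, NAVI against VehN called 0 members and 0 of all genes (0%) with edgeR, although 40 members and 29.1% of all genes had an unadjusted p under 0.05; DESeq2 called 24 members and limma-voom 10. The smallest p in each complex went to Ndufs4, an accessory subunit of complex I, at -0.18 on the log2 scale (SE 0.0558), to Sdhb at 0.20 (SE 0.0709), to Uqcrh at -0.27 (SE 0.0751), to Cox5a at -0.25 (SE 0.0858) and to Atp5l at 0.80 (SE 0.231). Their adjusted p from edgeR was 0.0674, 0.0818, 0.0595, 0.0777 and 0.0603. Without 3xTg NAVI replicate 2, 31 members were called, and without VehN replicate 1, 34. In WT, NAVI called 0 members (0% of all genes), with 13 members and 7.74% of genes at an unadjusted p under 0.05, and DESeq2 and limma-voom also called 0. The values with the smallest p were 0.18 (SE 0.0717) for Ndufb6, 0.11 (SE 0.0527) for Sdhc, 0.16 (SE 0.0704) for Uqcrc2, 0.20 (SE 0.0857) for Cox5a and -0.56 (SE 0.229) for Atp5l, each with an edgeR adjusted p of 0.614.

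DQ in 3xTg called 0 members and 0% of genes, with 0 members and 1.83% of genes at an unadjusted p under 0.05; DESeq2 and limma-voom called 0. The values with the smallest p were -0.09 (SE 0.0462) for Ndufb8, -0.03 (SE 0.0421) for Sdhd, -0.13 (SE 0.0751) for Uqcrh, -0.13 (SE 0.0858) for Cox5a and -0.10 (SE 0.0704) for Atp5j, a subunit of the peripheral stalk. In WT it called 0 members and 0.00611% of genes, with 1 member and 3.38% of genes at an unadjusted p under 0.05, and both other tools called 0 members. The values with the smallest p were -0.28 (SE 0.137) for Ndufb4, 0.07 (SE 0.0709) for Sdhb, 0.06 (SE 0.0912) for Uqcrc1, -0.09 (SE 0.0731) for Cox6c and 0.05 (SE 0.0417) for Atp5a1. The 2 vehicle groups of 3xTg had no member called either (0 by each of the 3 tools, 0% of genes, 0 members and 4.93% of genes at an unadjusted p under 0.05). Their values with the smallest p were -0.57 (SE 0.3) for Ndufa4l2, -0.04 (SE 0.0527) for Sdhc, -0.07 (SE 0.075) for Uqcrh, -0.59 (SE 0.365) for Cox6a2 and -0.08 (SE 0.0703) for Atp5j.

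The NAVI difference itself was set against genotype. It differed for 17 members, 5 with a higher value in 3xTg and 12 with a lower one, while 5.89% of all genes were called higher and 2.24% lower, 8.13% in all. An unadjusted p under 0.05 was found for 43 members and 32.7% of all genes. Atp5l changed by 0.80 in 3xTg and -0.56 in WT, a difference of 1.36 (SE 0.325, edgeR adjusted p = 0.0427). Uqcrq differed by 0.67 (SE 0.189, edgeR adjusted p = 0.043) and Ndufa11, which stabilises the membrane arm of complex I, by 1.0 (SE 0.285, edgeR adjusted p = 0.0436); Ndufs7 and Ndufa13 were the other 2 on the higher side. Uqcrh differed by -0.42 (SE 0.106, edgeR adjusted p = 0.0427), Cox5a, which binds the matrix side of complex IV, by -0.46 (SE 0.121, edgeR adjusted p = 0.0427) and Ndufs4 by -0.28 (SE 0.0788, edgeR adjusted p = 0.0436). The WT vehicle group is the control of NAVI and DQ alike, and its vehicle is not specified as VehN or VehD, so a difference between vehicles cannot be told apart from this one.

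The medians of the NAVI difference differed between members of high and low GC content. Among the 40 members above the median GC content of 51.6%, the difference between genotypes had a median of 0.35, and among the 41 at or below it of -0.09; all genes in the same GC ranges gave 0.27 and -0.19. Single members did not all follow: 33 of the 40 and 14 of the 41 were above 0. Atp5l and Uqcrq, with the differences of 1.36 and 0.67, have a GC content of 47.8% and 50.2%. Each GC content is that of 1 annotated transcript, which was not checked against the reads. With vehicle, the genotype difference had a median of -0.24 in members above that GC content and -0.01 in the rest, against -0.13 and 0.09 over all genes, and -0.14 and -0.06 with the GC trend removed. For NAVI in 3xTg the members' medians were 0.19 above and -0.07 below, and in WT -0.13 and 0.03. After removal of each library's GC trend the medians of the difference were 0.04 and 0.07 and 0 of the 17 calls were kept. There were also 0 calls without the low count filter, without the 6 libraries with the steepest GC slopes, and without any 1 of 3xTg NAVI replicates 3 and 4, VehN replicates 2 and 3, WT NAVI replicates 2, 3 and 4 and WT vehicle replicates 1 and 4. There were 5 calls without VehN replicate 4, 37 without 3xTg NAVI replicate 2, 35 without VehN replicate 1 and 34 without WT vehicle replicate 2. For DQ, 0 members and 0% of genes were called in the same test, with 1 member (Ndufb8, -0.14, SE 0.0653) and 2.85% of genes at an unadjusted p under 0.05; DESeq2 and limma-voom called 0 members. The other values with the smallest p were -0.07 (SE 0.0596) for Sdhd, -0.08 (SE 0.073) for Uqcrfs1, -1.96 (SE 1.33) for Cox8b and -0.14 (SE 0.0996) for Atp5j.

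**Figure D3:**
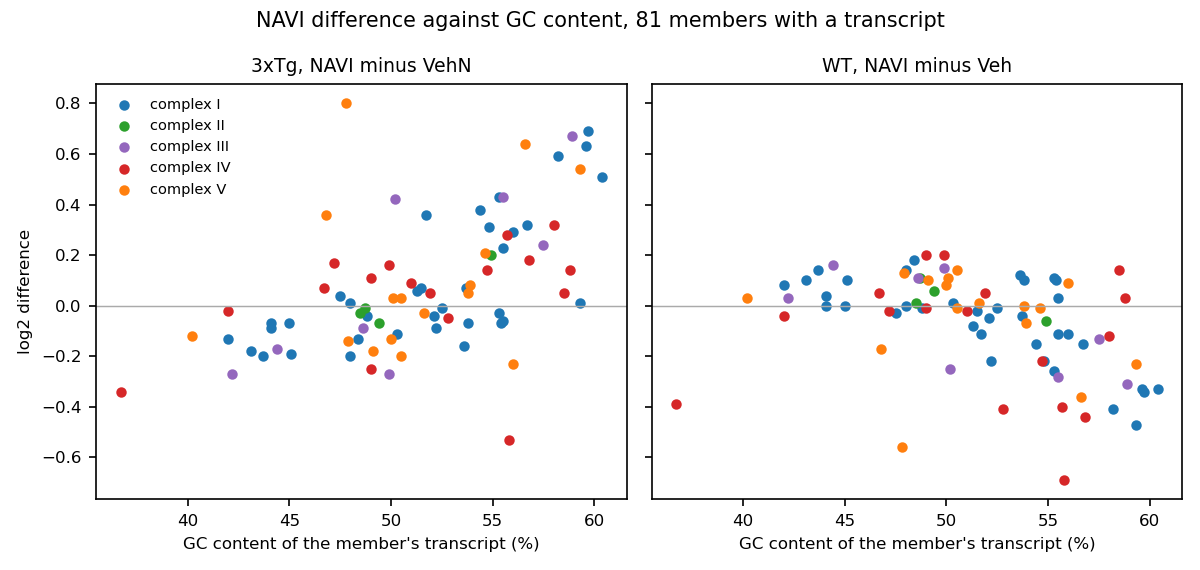
Log2 difference with NAVI in 3xTg and in WT against the GC content of the transcript, for the 81 members with a transcript. Members above a GC content of 51.6% had a median of 0.19 in 3xTg and -0.13 in WT; no single point passed the edgeR test.

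The level of the whole family was also summarised in each library as the mean log2 CPM of the 82 members relative to the mean of all libraries. Each member counted equally, so scarce forms such as Cox8b, at 0.109 to 4.31 CPM, weighed as much as abundant ones. The family mean ran from -0.19 in VehN replicate 3 and VehD replicate 3 to 0.18 in WT vehicle replicate 4. For complex IV alone it ran from -0.31 in VehD replicate 2 to 0.34 in WT vehicle replicate 4, and for complex II from -0.09 to 0.06. The group means were 0.06 ± 0.08 (SD, n = 4) in WT with vehicle, 0.01 ± 0.04 with NAVI and 0.08 ± 0.07 with DQ. In 3xTg they were -0.05 ± 0.13 with VehN, -0.07 ± 0.09 with VehD, 0.03 ± 0.10 with NAVI and -0.08 ± 0.05 with DQ. The ranges overlapped in every genotype comparison; with DQ 3xTg lay between -0.12 and -0.01 and WT between -0.02 and 0.15. The 2 libraries with the lowest values also had the lowest GC slopes, -0.36 and -0.27. The library with the highest value had a GC slope of 0.26. The slope of log2 level on transcript length, per doubling, was 0.054 and 0.028 in the former and -0.052 in the latter. Over all libraries it ran from -0.063 to 0.054. The median transcript length was 838 bases for the members and 2962 for all genes tested. The part of transcript length in the family mean was not tested. With the GC trend removed the group means were 0.05, 0.03 and 0.07 in WT and -0.04, -0.05, 0.00 and -0.07 in 3xTg. The order of treatments within a genotype was the same, but with NAVI the mean of 3xTg was above that of WT before the removal and below it after. The 2 libraries at the ends of the complex IV range also differed in choroid plexus markers. Their choroid plexus score was -2.88 in VehD replicate 2 and 1.98 in WT vehicle replicate 4. Cox8b stood at 0.109 and 2.64 CPM in them. Not all libraries followed: the complex IV mean was 0.11 in WT DQ replicate 3, with a score of -2.12. It was -0.16 in VehN replicate 3, with a score of 1.46. The part of choroid plexus in the complex IV mean was not tested.

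**Figure D4:**
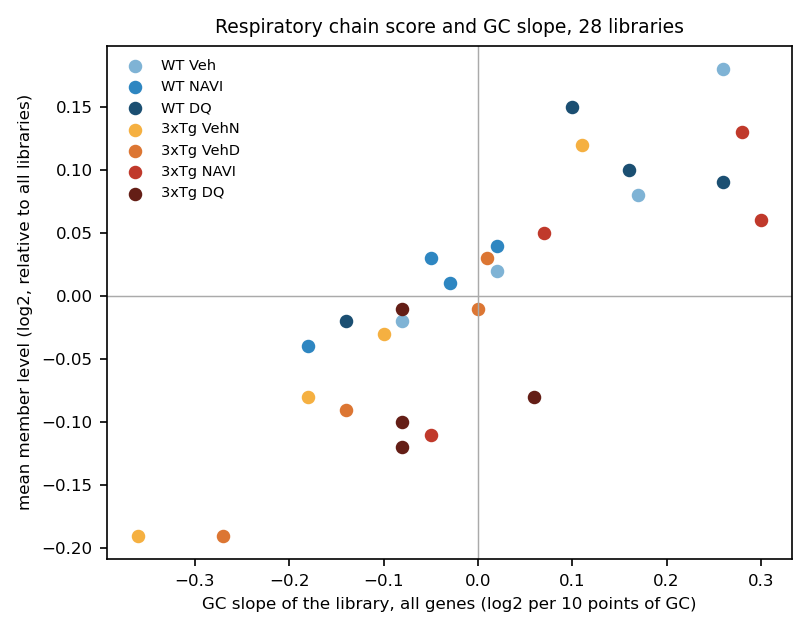
Mean log2 level of the 82 members in each of the 28 libraries against the GC slope of that library over all genes. The lowest 2 libraries, at -0.19, have GC slopes of -0.36 and -0.27, and the highest, at 0.18, a slope of 0.26.

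Other gene lists of energy metabolism were counted in the same way. With vehicle, 2 of 16 glycolysis genes were lower in 3xTg and 0 higher, with a median of -0.21, all 16 below 0 and 13 at an unadjusted p under 0.05. The 2 were Ldha, which turns pyruvate into lactate, at -0.35 (SE 0.0582, edgeR adjusted p = 0.000397) and the neuronal enolase Eno2 at -0.23 (SE 0.0586, edgeR adjusted p = 0.0148). Of 16 genes of the citric acid cycle, 1 was higher, Suclg2 at 0.22 (SE 0.0705, edgeR adjusted p = 0.0371), and the median was 0.02. Of 16 regulators of mitochondrial biogenesis 0 were called, with 3 at an unadjusted p under 0.05 and a median of 0.08. Among 18 import genes 5 were lower, led by Timm17a at -0.16 (SE 0.0424, edgeR adjusted p = 0.0166), and among 77 mitochondrial ribosomal proteins 7 were lower and 2 higher, led by Mrps12 at -0.77 (SE 0.13, edgeR adjusted p = 0.00057). Assembly factors, which build the complexes but are not part of them, gave 1 higher and 1 lower of 14 for complex I, 0 of 2 for complex II, 1 lower of 5 for complex III, 2 lower of 18 for complex IV and 2 lower of 4 for complex V. Coa3 and Cox17 were the 2 of complex IV, at -0.24 (SE 0.0637, edgeR adjusted p = 0.0153) and -0.26 (SE 0.0786, edgeR adjusted p = 0.031). Among 13 genes of cytochrome c and coenzyme Q synthesis 1 was higher, Coq10b. The lowest of them was Cyc1, at -0.19, which was not called. Outside the mitochondrion, 27 of 81 cytosolic ribosomal proteins were lower and 4 higher, with a median of -0.16. Beside these, 3 of 5 astrocyte markers, 2 of 5 oligodendrocyte markers and 1 of 5 microglia markers were higher in 3xTg, 0 of 6 neuron markers were called (2 at an unadjusted p under 0.05), and 2 of 8 hippocampal markers were lower. Of 4 endothelial markers, 1 was lower (Cldn5, at -0.89), 3 had an unadjusted p under 0.05, and the median was -0.35. With NAVI, 2 of 6 neuron markers were lower, and 2 of 5 astrocyte, 2 of 5 microglia and 1 of 5 oligodendrocyte markers were higher; with DQ, 1 of 5 astrocyte and 1 of 5 microglia markers were higher. The part of these markers in the members' differences was not tested.

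With NAVI, the electron carrier Cycs, cytochrome c itself, was lower in 3xTg than in WT at -0.30 (SE 0.0665, edgeR adjusted p = 0.00834), and so was Coq10a at -0.21 (SE 0.0537, edgeR adjusted p = 0.0216), 2 of 13 genes of that list. Assembly factors were lower in 2 of 14 for complex I, 1 of 2 for complex II, 1 of 5 for complex III and 1 of 18 for complex IV, where 1 was also higher, and 0 of 4 for complex V. The biogenesis regulator Pprc1 was higher at 0.34 (SE 0.0907, edgeR adjusted p = 0.0254), and 0 of 16 glycolysis genes were called, with a median of 0.10. With DQ, 0 of the assembly factors, citric acid cycle and glycolysis genes were called, and 2 mitochondrial ribosomal proteins were lower, Mrpl20 at -0.23 (SE 0.0516, edgeR adjusted p = 0.0145) and Mrps12 at -0.57 (SE 0.154, edgeR adjusted p = 0.0406).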

How the data were processed

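Hippocampal RNA of 28 libraries in 7 groups of 4 was sequenced as stranded poly(A) libraries from 200 ng of RNA with paired reads of 100 bases, per the labels' protocols. The authors deposited raw counts per gene symbol, not normalized; the submitters' processing notes name STAR, Subread, featureCounts and mm10. No source used here gives the annotation, the strand setting or the handling of multi-mapping reads. Groups came from the labels, and 0 columns were left unused. If libraries of a group are not separate animals, p-values measure only the spread between libraries.

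All 24062 genes entered 1 edgeR 4.0.16 fit (R 4.3.3; TMM, filterByExpr, 16369 genes kept) with 1 coefficient per group; 10 contrasts were tested by quasi-likelihood, two-sided, with Benjamini-Hochberg adjustment over all genes and calls at 0.05. CPM used TMM factors. Standard errors are the absolute log2 difference over the square root of F. Transcript length, GC content and positions came from GENCODE M21, and upstream sequences from RefSeq, both of the build GRCm38. Length and GC content are those of 1 transcript per gene, the longest tagged as principal or, without such a tag, the longest. Whether the reads came from that transcript was not tested. The members and gene lists were chosen with earlier results of these data known. Named genes are, per complex and comparison, the called member with the smallest p and that with the largest change. Where none was called, the member with the smallest p was named. A fixed list of subunits was always given. The other called members, Atp5g2, Cyc1, Tfpt and other overlapping genes, and Gpatch11, Ppp1r3f and 1700021F05Rik, were named after their values were seen. So were the upstream windows and the stretch of chromosome 7. The test was checked on simulated data.

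Alternatives were RLE scaling, no low count filter, the replicate number as a block, GC and length trends removed, choroid plexus and thalamus scores as covariates, other vehicle references, DESeq2 1.42.0, limma-voom (limma 3.58.1) and leaving out each library. Leaving out 8 libraries with a high thalamus score, or 6 with a GC slope beyond 0.2, was chosen after seeing the data. Precision is limited by 4 libraries per group and total counts of 32080861 to 54019519.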

Additional observations from a re-analysis of the deposited data

Results flagged for a closer look

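In 3 of 91 sets of 4 libraries checked (13 genes in 7 groups), 1 library lay further from the other 3 than a threshold that chance passes in about 1 in 20. Cox7a2 stood at 192 CPM in WT vehicle replicate 4 and at 197 CPM in the other 3. Cox6b1 stood at 159 CPM in VehD replicate 3 and at 178 to 180 CPM in the others. Sdha stood at 566 CPM in WT DQ replicate 4 and at 607 to 613 CPM in the others.

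The difference between NAVI and vehicle differed between genotypes for 17 members by a test of the difference itself. Those given in full above were Ndufs4 at -0.28, Ndufa11 at 1.0, Uqcrh at -0.42, Uqcrq at 0.67, Cox5a at -0.46 and Atp5l at 1.36 on the log2 scale.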

How the results depend on the processing

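Counts of called members moved by more than 1.5 times under the following settings. With vehicle, the genotype count of 12 became 22 with the tissue scores as covariates, 2 with VehD alone, 19 with DESeq2, 43 without the 8 libraries with a high thalamus score and 2 without the 6 libraries with a GC slope beyond 0.2, and ran from 3 to 28 without 1 library. With NAVI the count of 14 became 8 with the covariates and 2 without those 6 libraries, and ran from 3 to 20 without 1 library. With DQ the count of 3 became 6 with DESeq2, 14 with limma-voom and 1 without the 8 libraries, and ran from 1 to 5. For NAVI in 3xTg the count of 0 became 21 with the covariates, 12 against both vehicle groups, 24 with DESeq2, 10 with limma-voom and 25 without the 8 libraries, and ran from 0 to 34. For the NAVI difference between genotypes the count of 17 became 0 without the low count filter, 0 with GC, or GC and length, trends removed, 34 with the covariates, 35 with DESeq2, 28 with limma-voom, 41 without the 8 libraries and 0 without the 6, and ran from 0 to 37. The cause was not tested. The other 5 counts of 0 stayed at 0 under every setting run.

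Whether the replicate numbers pair the libraries was not settled. The labels state no pairing, and 9 of 28 libraries correlated best with those of their own number. After removal of group means, the median correlation between libraries of the same number ran from -0.01 to 0.05. Single pairs ran from -0.40 to 0.46. With the number as a replicate block, the counts were 24 for genotype with vehicle, 22 with NAVI and 6 with DQ, 31 for NAVI in 3xTg and 34 for the NAVI difference between genotypes.

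Signs turned for values near 0 or with a large error: Sdhc between vehicles ran from -0.07 to 0.01 without 1 library (0.01 without VehN replicate 1 or VehD replicate 3), Ndufs4 gave 0.00 between genotypes and 0.01 in 3xTg for NAVI, and Sdhd 0.00 for DQ in 3xTg, with GC and length trends removed. Without the 8 libraries, Cox8b gave 2.66 for DQ between genotypes, and Sdhb and Uqcrc1 gave -0.02 and -0.06 for DQ in WT.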

Other observations

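Cox7a2l fell into 2 ranges among the WT libraries, a feature noticed in the plot of its values. In 7 of 12 WT libraries it lay between 41.2 and 51.2 CPM and in 5 between 64.6 and 68.5 CPM, with no library between; the 16 libraries of 3xTg lay between 37.1 and 48.3 CPM. The 5 high libraries were WT vehicle replicate 4 at 68.5, WT NAVI replicates 1, 2 and 4 at 67.3, 64.6 and 65.2, and WT DQ replicate 4 at 66.6 CPM. The other WT libraries stood at 51.2, 45.9 and 46.5 CPM with vehicle, 46 CPM with NAVI and 48.9, 41.2 and 47.6 CPM with DQ. 

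Over the 12 WT libraries, the gene whose log2 level was most like that of Cox7a2l in size of correlation was Gpatch11, with r = -0.96, given as a description with no test. Gpatch11 stood at 52.8 to 59.4 CPM in the 7 WT libraries with low Cox7a2l, at 44.1 to 47.1 CPM in the 5 with high Cox7a2l and at 50.9 to 67 CPM in 3xTg. Both genes lie on chromosome 17, Gpatch11 at chr17:78835567-78848308 and Cox7a2l at chr17:83501918-83517330. The next most like genes, Ppp1r3f at r = 0.92 and 1700021F05Rik at r = -0.92, lie on chromosomes X and 10.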
